A study of Homo sapiens with 2 samples.

Results

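The genes described here encode the neural and muscle intermediate filament proteins: the neurofilament chains NEFL, NEFM and NEFH, the internexin INA, peripherin (PRPH), nestin (NES), glial fibrillary acidic protein (GFAP) and desmin (DES). These 8 genes were chosen by name from the 19198 genes of the deposited tables, with the high level of NEFL in both libraries already known, so that the level of NEFL is given as a description only. The data are mRNA sequencing of polyA RNA from cells labelled as the human non-small-cell lung cancer line A549. A549-NICD1 cells overexpressed NICD1, the intracellular domain that γ-secretase frees from the NOTCH1 receptor, and A549-Vector cells carried the vector control. The study's methods describe NICD1 in the lentiviral pSin-EF2 vector and stable lines made by viral infection and antibiotic selection, and do not say whether a line was 1 clone. The labels give both groups the same parental line and name no drug or time. There was 1 library per group, so none of the differences below has a replicate check and no test of the conditions could be made.

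Intermediate filaments are rope-like polymers of coiled-coil proteins that give a cell mechanical strength, and each tissue uses its own set. Neurons build their filaments from NEFL, the chain on which assembly depends, together with NEFM, NEFH and INA, and many peripheral neurons add PRPH. Nestin is typical of neural progenitors and needs a partner such as vimentin to polymerise, whereas GFAP is the filament of astrocytes and desmin that of muscle. Notch signaling is known for holding neural progenitors in an undifferentiated state through the HES repressors. Lung epithelium is usually built on keratins instead.

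The depth behind the values was 48602848 reads in A549-Vector and 48528434 reads in A549-NICD1, recovered from the deposited values themselves. NOTCH1, the gene of the construct, was at 5.40 FPKM (reads scaled to gene length and to sequencing depth) in the vector library and 2865 FPKM in the NICD1 library, and RFC4, which the labels do not name as altered, was at 39.5 and 4075 FPKM. Where a pair of values is given, that of A549-Vector comes first. Of 13 genes listed for A549 cells and lung epithelium, 6 were at or above 1 FPKM in each library and 6 were below 1 FPKM in both. KRT7, KRT19 and the surfactant gene SFTPC were listed at 0 in both libraries. Of 6 genes listed for the human embryonic kidney lineage HEK293, 5 were at or above 1 FPKM in each, against 62.8% of all genes. The summed level of the A549 list was 172 and 317 FPKM, almost all from KRT8 and KRT18. That of the HEK293 list was 190 and 183 FPKM, mostly from CDKN2A. CDKN2A, which A549 cells are known to lack by deletion, was at 139 and 138 FPKM. These values go in part against the label, so the A549 identity of both libraries is in doubt, and the levels below are those of the cells labelled A549. The part of these cell line markers in the levels of the filament genes was not tested.

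Promoters of 3 of the 8 genes, NES, INA and PRPH, were found in the RefSeq table of the build GRCh38.p14, which covers 250 bases before and 50 bases after the start that RefSeq gives each gene. They were searched on both strands for TGGGAA, the core of the site bound by RBPJ, the DNA-binding partner of NICD1, and for the longer form GTGGGAA, each match of which also contains the core. The core occurred in 24.0% of 35116 promoters in the table and the longer form in 6.25%. INA and NES held neither. PRPH held 1 core, on the reverse strand, whose first base was base 2 counted from the RefSeq start. For PRPH the annotations disagree, the RefSeq start lying 1895 bases downstream of the start of the gene in GENCODE 29, so that its whole window lies inside the GENCODE gene. The promoters of PRPH, lower in A549-NICD1, and of INA, higher in A549-NICD1, are shown because their genes lay at opposite ends of the differences described below, with the core in capitals. PRPH lies on the forward strand at chr12:49294897-49295196, and INA on the forward strand at chr10:103276888-103277187. The INA window held 35 CG dinucleotides and the PRPH window 13, against a median of 14 over all promoters.
PRPH: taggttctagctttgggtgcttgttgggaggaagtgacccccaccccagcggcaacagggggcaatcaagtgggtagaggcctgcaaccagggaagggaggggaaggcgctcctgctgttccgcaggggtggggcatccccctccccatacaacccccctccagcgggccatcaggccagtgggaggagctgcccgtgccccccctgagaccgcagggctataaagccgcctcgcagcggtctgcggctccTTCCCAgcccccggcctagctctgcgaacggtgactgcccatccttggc
INA: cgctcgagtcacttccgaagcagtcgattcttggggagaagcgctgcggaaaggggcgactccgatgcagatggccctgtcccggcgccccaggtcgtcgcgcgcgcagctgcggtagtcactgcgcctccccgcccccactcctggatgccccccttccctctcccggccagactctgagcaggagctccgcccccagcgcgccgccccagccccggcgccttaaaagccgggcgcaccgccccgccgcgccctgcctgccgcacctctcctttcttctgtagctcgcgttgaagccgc
A match of these letters describes the sequence only, and the absence of one says only that these letters are not in the window shown.

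Of the 8 genes, 6 were at or above 1 FPKM in each library, as were 62.8% of all genes. FPKM is a level per length of gene, so levels can be set side by side between genes. The order of the levels was the same in both libraries, from NEFL through NEFM, NES, INA, PRPH, GFAP and NEFH to DES. With 1 library in each group, the spread between cultures is unknown, so it cannot be said which neighbours in this order differ beyond it. In these bulk libraries a smaller share of cells that express a gene and less RNA per cell cannot be told apart.

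**Figure D1:**
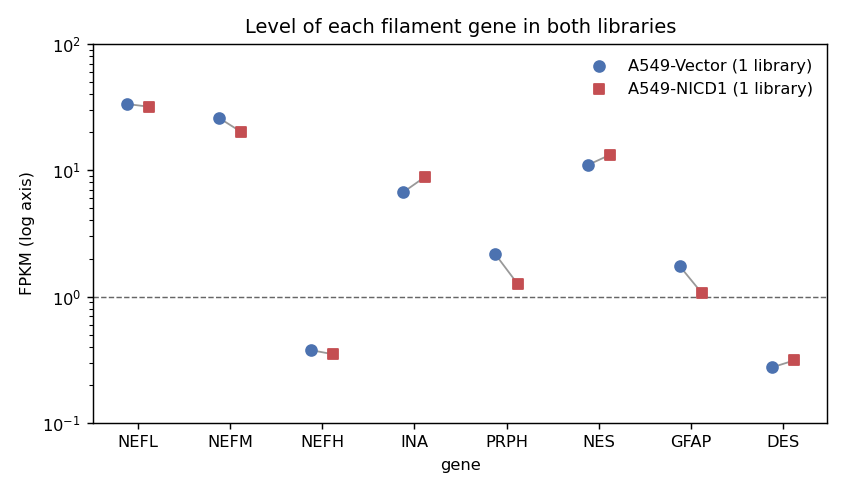
FPKM of each filament gene (log axis) in the single A549-Vector library (circles) and the single A549-NICD1 library (squares), with a dashed line at 1 FPKM. NEFL, NEFM, NES and INA lay above 6 FPKM in both libraries, PRPH and GFAP between 1 and 3 FPKM, and NEFH and DES below 0.4 FPKM.

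NEFL, the light chain, was at 33.5 FPKM in the vector library (6249 reads) and 31.9 FPKM in the NICD1 library (5939 reads). It ranked 2557 and 2653 among all genes and was higher than 86.7% and 86.2% of them. NEFM, the medium chain, was at 26.0 FPKM in the vector library (3654 reads) and 20.1 FPKM in the NICD1 library (2826 reads), so both of these chains exceeded the median gene, which was at 4.71 and 4.37 FPKM. NEFH, the heavy chain that carries long phosphorylated side arms in mature axons, was at 0.376 FPKM in the vector library (68 reads) and 0.349 FPKM in the NICD1 library (63 reads). NEFL was thus 89.0 times the level of NEFH in A549-Vector and 91.3 times in A549-NICD1. INA was at 6.71 FPKM in the vector library (1053 reads) and 8.91 FPKM in the NICD1 library (1397 reads). PRPH was at 2.16 FPKM in the vector library (192 reads) and 1.26 FPKM in the NICD1 library (112 reads). Neurofilament transcripts were therefore mostly those of the light and medium chains, with little of the heavy chain.

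NES was at 10.98 FPKM in the vector library (2967 reads) and 13.2 FPKM in the NICD1 library (3567 reads), which placed nestin above 64.5% and 69.2% of all genes. GFAP was at 1.74 FPKM in the vector library (200 reads) and 1.06 FPKM in the NICD1 library (122 reads). DES was the lowest of the 8 genes, at 0.275 FPKM (30 reads) and 0.312 FPKM (34 reads). The astrocyte and muscle filament genes thus had reads in both libraries but ranked 11527 or lower in each.

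**Figure D2:**
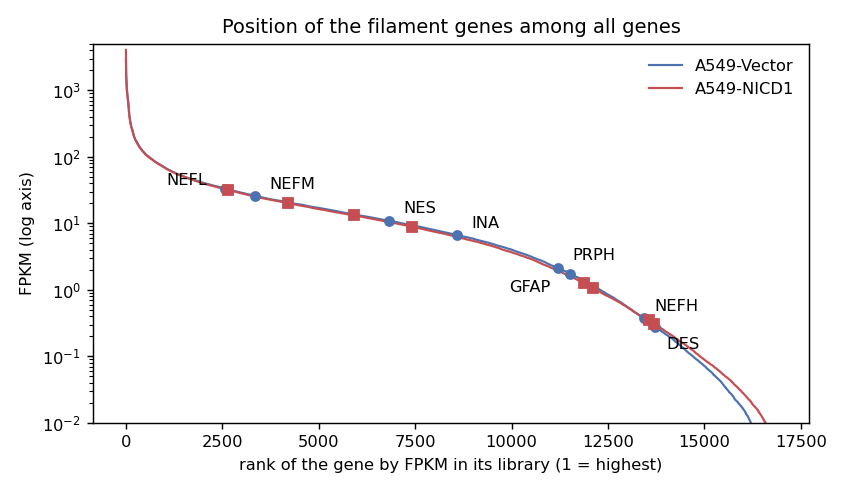
FPKM of all genes (log axis) against their rank in each library (lines), with the filament genes marked by circles for A549-Vector and squares for A549-NICD1. NEFL and NEFM sat among the 4199 highest genes of both libraries, while NEFH and DES ranked 13425 or lower.

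The 3 genes nearest to NEFL in level over the 2 libraries, by distance on the log2(FPKM + 0.1) scale, were MOGS at 33.4 and 31.7 FPKM, TWF1 at 33.4 and 32.1 FPKM and TMEM183A at 33.2 and 32.0 FPKM in A549-Vector and A549-NICD1. With only 2 libraries such likeness describes level alone.

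To ask whether these filament genes differed between the libraries, the log2 difference of A549-NICD1 minus A549-Vector was taken on FPKM + 0.1. The libraries were first brought to a common scale by the trimmed mean of their log ratios (factor 0.962). NOTCH1 and RFC4 were both far higher in A549-NICD1, and the study reports that NICD1 raised RFC4. Their parts in a difference of a filament gene cannot be told apart here. Intervals are 95% Clopper-Pearson intervals on the reads, without the added 0.1, and cover counting error only. None of the 8 genes lay beyond a log2 difference of 1, a 2-fold difference, in either direction. Among the 15141 genes at 0.1 FPKM or more in a library, 3.37% did, with 2.42% above 1 and 0.951% below -1. The median log2 difference of the 8 genes was -0.03, against -0.00054 for all these genes, and the members ranged from -0.68 to 0.46. With this scaling, 2 of the 8 genes had a counting interval wholly above 0, 3 had one wholly below 0 and 3 had one that held 0. Such an interval was found for 15023 of the genes at 0.1 FPKM or more in a library. Of these, 28.1% lay wholly above 0, 28% wholly below and 56.1% wholly on either side. The share of members is thus near the background and is no result about them.

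INA and NES were the genes with an interval above 0. INA was 1.38-fold higher in A549-NICD1, a log2 difference of 0.46 (interval 0.35 to 0.58). NES was 1.25-fold higher, a log2 difference of 0.32 (interval 0.25 to 0.40). A higher log2 difference than that of INA was seen in 7.83% of the 15141 genes at 0.1 FPKM or more in a library, and than that of NES in 11.7%.

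NEFM, PRPH and GFAP were the genes with an interval below 0. NEFM in A549-NICD1 was at 0.806 of its level in A549-Vector, a log2 difference of -0.31 (interval -0.38 to -0.24). PRPH was at 0.625 of its level, a log2 difference of -0.68 (interval -1.07 to -0.38). GFAP was at 0.655 of its level, a log2 difference of -0.61 (interval -0.99 to -0.32). These last values rest on 192 reads or fewer of PRPH and 200 or fewer of GFAP in a library. Of the 15141 genes at 0.1 FPKM or more in a library, 3.20% and 4.12% had a lower log2 difference. Among the 2581 genes with a mean level from 0.5 to 3 FPKM, the range that holds PRPH and GFAP, 7.05% lay below PRPH and 9.57% below GFAP.

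For NEFL, NEFH and DES the difference was not detectable beyond counting error at this depth and with this scaling, on which the result for NEFL depends. NEFL, the best measured of the 8 genes, had a log2 difference of -0.01 (interval -0.07 to 0.04). Of the genes at 0.1 FPKM or more in a library, 94.4% had a larger difference in size. NEFH had a log2 difference of -0.04 (interval -0.57 to 0.46), and DES one of 0.18 (interval -0.51 to 0.998). The intervals of NEFH and DES are wide because so few reads fell on these genes.

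**Figure D3:**
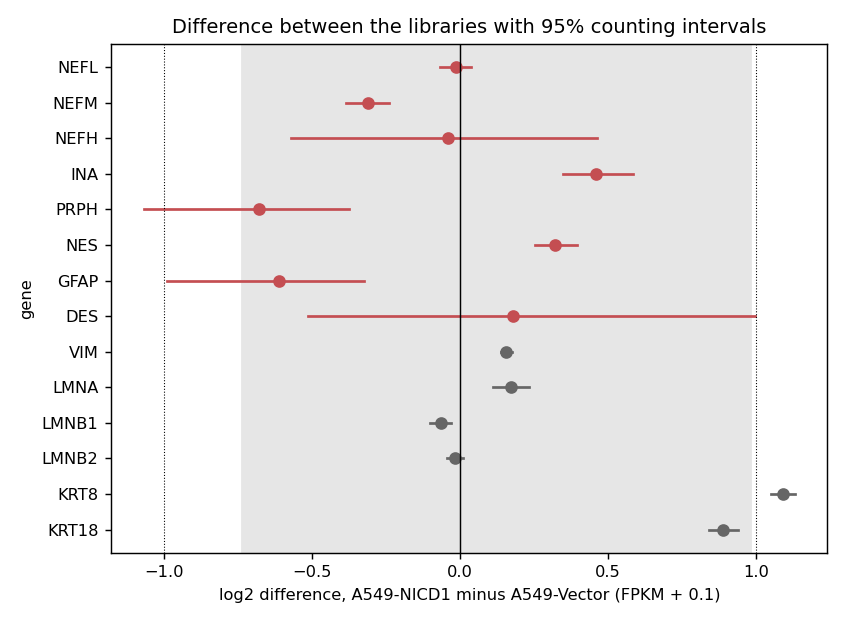
Log2 difference of A549-NICD1 minus A549-Vector (horizontal axis) for the 8 filament genes (red) and 6 other intermediate filament genes (grey). Bars are 95% counting intervals, and dotted lines lie at -1 and 1. A grey band holds the middle 95% of genes at 0.1 FPKM or more in a library, from -0.73 to 0.98. All 8 points of the filament genes lay inside the band, and KRT8 lay beyond it.

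Because a ratio of 2 genes within a library does not depend on scaling, the make-up of the neurofilament transcripts was compared as well. The 5 subunit genes NEFL, NEFM, NEFH, INA and PRPH summed to 68.7 FPKM in the vector library and 62.5 FPKM in the NICD1 library. NEFL made up 48.7% of this sum in A549-Vector and 51.0% in A549-NICD1, NEFM 37.8% and 32.2%, and INA 9.76% and 14.3%. PRPH made up 3.14% and 2.01%, and NEFH 0.547% and 0.558%. The ratio of NEFL to NEFM was 1.29 in A549-Vector and 1.58 in A549-NICD1, a change of 1.23-fold (conditional 95% interval of the odds ratio of reads 1.16 to 1.31). The ratio of INA to NEFM changed by 1.72-fold (interval 1.56 to 1.89), and that of INA to NEFL by 1.40-fold (interval 1.28 to 1.53). The ratio of NES to GFAP changed by 1.97-fold (interval 1.56 to 2.503), where reads of GFAP cannot be told apart from those of the overlapping CCDC103 described below. The ratio of NES to INA changed by 0.906-fold (interval 0.824 to 0.996), and that of PRPH to NEFM by 0.754-fold (interval 0.589 to 0.962). The ratio of GFAP to PRPH changed by 1.046-fold (interval 0.746 to 1.47), an interval that holds 1. These pairs were picked after the values had been seen, and no share over other pairs of genes is given beside them.

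NEFL and NEFM are neighbours on chromosome 8, where GENCODE 29 places NEFM at 24913012 to 24919098 on the forward strand and NEFL at 24950955 to 24957110 on the reverse strand of hg38, with 31856 bases between them. Although adjacent, they differed in how they compared between the libraries, by the 1.23-fold change of ratio given above. Of the 8 coding genes measured within 1 Mb on either side, 5 were at or above 1 FPKM in each library, and all 5 lay on the side of NEFL. DOCK5 was at 7.63 and 7.80 FPKM, KCTD9 at 13.4 and 13.6 FPKM and CDCA2, a mitotic gene, at 15.5 and 14.4 FPKM in A549-Vector and A549-NICD1. GNRH1 was at 1.79 and 1.48 FPKM. EBF2 was at 3.29 and 1.36 FPKM, a log2 difference of -1.16, the only one of these neighbours beyond 1. On the side of NEFM, ADAM28, ADAMDEC1 and ADAM7 were at most at 0.0344 FPKM in either library. The NEFL and NEFM levels thus exceeded those of each measured coding neighbour in this window in both libraries. The neighbours were listed after the members' values had been seen, and NEFL was already known to be high, so the comparison describes levels only.

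The remaining genes lie apart from each other. GENCODE 29 places NES at 156668763 to 156677397 on the reverse strand of chromosome 1, INA at 103277163 to 103290351 on the forward strand of chromosome 10 and PRPH at 49293252 to 49298686 on the forward strand of chromosome 12. It places GFAP at 44903161 to 44916937 on the reverse strand of chromosome 17, DES at 219418377 to 219426739 on the forward strand of chromosome 2 and NEFH at 29480230 to 29491390 on the forward strand of chromosome 22. Except for INA and NES, each of the 8 genes is overlapped by another annotated gene on the opposite strand. The study's supplement calls the sequencing strand-specific, the library kit named in the labels is not described there as stranded, and whether reads were counted by strand is not given in the sources used here. Reads of such partners therefore cannot be told apart from those of the filament gene here. Of these partners a level was measured only for the coding gene CCDC103, which overlaps GFAP and was at 4.34 FPKM in the vector library and 3.52 FPKM in the NICD1 library, above GFAP itself in both.

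Some other intermediate filament genes were far more abundant. The median of the 9 listed apart from the keratins was 14.4 and 14.7 FPKM, below NEFL and NEFM in both libraries. Vimentin (VIM), with which nestin co-assembles, was at 411 FPKM in the vector library and 441 FPKM in the NICD1 library, 12.3 and 13.8 times the level of NEFL. The nuclear lamin genes LMNB2, at 109 and 103 FPKM, and LMNB1, at 96.8 and 89.1 FPKM, followed. Of 9 such genes, 8 were at or above 1 FPKM in each library and none lay beyond a log2 difference of 1, with a median of 0.12 over the 8 that passed the filter. Among 6 epithelial keratin genes only KRT8 and KRT18, which pair into the filament of simple epithelia, had values above 1 FPKM, and 4, KRT7 among them, were listed at 0 in both libraries. KRT8 went from 85.9 to 176 FPKM, a log2 difference of 1.09 (interval 1.053 to 1.13), and KRT18 from 73.1 to 130 FPKM, one of 0.89 (interval 0.84 to 0.94). The 8 neural and muscle genes made up 9.16% of the FPKM summed with VIM, LMNA, LMNB1, LMNB2, KRT8 and KRT18 in A549-Vector and 7.32% in A549-NICD1, a share in which the higher keratins enter the sum.

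Genes whose products handle these filaments were described next. Of 8 plakin and linker genes, 6 were at or above 1 FPKM in each library and none lay beyond 1, with a median log2 difference of -0.32 over 7. Desmoplakin (DSP), which anchors keratin and desmin filaments at desmosomes, was at 53.1 FPKM in the vector library and 101 FPKM in the NICD1 library, a log2 difference of 0.99 (interval 0.96 to 1.01). Plectin (PLEC), a cross-linker of all filament types, was at 25.3 and 19.0 FPKM, and DST, whose neuronal form ties neurofilaments to actin, at 19.7 and 16.8 FPKM. Of 8 small heat shock chaperone genes, 2 were at or above 1 FPKM in each library and none lay beyond 1 (median -0.26 over 5). This median turned to 0.22 among genes at 1 FPKM or more in a library, which leaves HSPB1 and HSPB8, and was -0.08 with a pseudocount of 1. HSPB1, mutated along with NEFL in inherited axonal neuropathy, was at 91.6 FPKM in the vector library and 62.7 FPKM in the NICD1 library. HSPB8 was at 9.94 and 18.4 FPKM, a log2 difference of 0.93 (interval 0.83 to 1.06). CRYAB, the chaperone best known for binding desmin and GFAP, was near the detection limit at 0.238 and 0.501 FPKM (10 and 21 reads).

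All 10 motor genes listed for the transport of filaments along microtubules were at or above 1 FPKM in each library, and none lay beyond 1 (median -0.01). KIF5B was at 99.1 and 103 FPKM, DCTN1 at 75.6 and 74.1 FPKM and DYNC1H1 at 74.9 and 59.9 FPKM. All 7 turnover genes were likewise expressed with none beyond 1 (median -0.05), among them UCHL1 at 169 and 144 FPKM, TRIM2, a ubiquitin ligase of NEFL, at 40.4 and 34.7 FPKM, and SQSTM1 at 38.9 and 45.5 FPKM. Of 15 kinases, phosphatases and partners that act on filament proteins, 14 were at or above 1 FPKM in each and none lay beyond 1 (median -0.07). PPP2CA was at 118 and 139 FPKM and AURKB at 100.1 and 83.5 FPKM. The genes of REST, the repressor that silences neuronal genes outside the nervous system, and of its corepressors were all 9 at or above 1 FPKM in each library (median -0.09, none beyond 1). REST itself was at 18.6 FPKM in the vector library and 15.96 FPKM in the NICD1 library, and KDM1A at 83.3 and 81.8 FPKM, HDAC1 at 78.7 and 69.5 FPKM and HDAC2 at 37.4 and 39.4 FPKM. The genes that move, modify and degrade neurofilaments in neurons thus had reads in both libraries, and none of them lay beyond a 2-fold difference. Over all genes, 17178 of 19198 were above 0 in at least 1 library. Of the 15141 at 0.1 FPKM or more in a library, 3.37% lay beyond 2-fold. Neither point is therefore a result about these genes.

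The genes that define the cell types in which these filaments are usually found were set beside them. Of 12 neuron markers, 5 were at or above 1 FPKM in each library and 6 were below in both, with a summed level of 29.5 FPKM in the vector library and 30.7 FPKM in the NICD1 library. TUBB3 was at 8.95 and 10.7 FPKM, SYP at 7.37 and 9.10 FPKM and MAPT at 6.28 and 4.47 FPKM. The single levels ran from 0 to 8.95 FPKM and from 0 to 10.7 FPKM, so that NEFL and NEFM stood above every neuron marker of the list in both libraries. As NEFL was known to be high when the genes were chosen, that comparison describes levels only. Of 9 markers that passed the filter none lay beyond 1 (median -0.03), and none of the 3 defining markers was at 0. Of the peripheral neuron markers, TH was listed at 0 in both libraries and CHAT at 0 in A549-Vector and at 1 read in A549-NICD1, whereas PRPH had 192 and 112 reads.

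Of 6 astrocyte markers, 2 were at or above 1 FPKM in each library, with a summed level of 42.0 FPKM in the vector library and 33.9 FPKM in the NICD1 library that came mostly from GJA1 (24.0 and 17.9 FPKM) and SLC1A3 (17.0 and 15.1 FPKM), which many other cells express. ALDH1L1 was at 0.450 and 0.287 FPKM, and no astrocyte marker was at 0 in both libraries or beyond 1 (median -0.15). Of 10 muscle markers none was at or above 1 FPKM in each library, and their sum was 3.63 and 4.71 FPKM. MYOG, TNNT2 and MYL1 were listed at 0 in both. ACTA1 was at 0.937 and 1.42 FPKM, MYH3 at 0.722 and 1.15 FPKM and MYOD1 at 0.957 and 0.901 FPKM, and the median over 6 was 0.41 with none beyond 1. Of 6 neural progenitor markers, 3 were at or above 1 FPKM in each library. SOX2 was at 48.6 FPKM in the vector library and 33.9 FPKM in the NICD1 library, MSI1 at 17.9 and 21.6 FPKM and PAX6 at 6.64 and 6.60 FPKM, with a summed level of 73.4 and 62.6 FPKM and a median log2 difference of 0.19 over 4, none beyond 1. Among the genes usual for HEK293 cells, CDKN2A was highest, followed by LIN28B at 31.9 and 28.99 FPKM and SALL1 at 13.9 and 11.7 FPKM (median -0.13 over 6, none beyond 1). In the A549 list 9 genes passed the filter, with a median log2 difference of 0.08 and only KRT8 beyond 1, and NKX2-1 was at 4.67 and 3.74 FPKM. The part of any of these cell types in the levels of the filament genes was not tested.

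**Figure D4:**
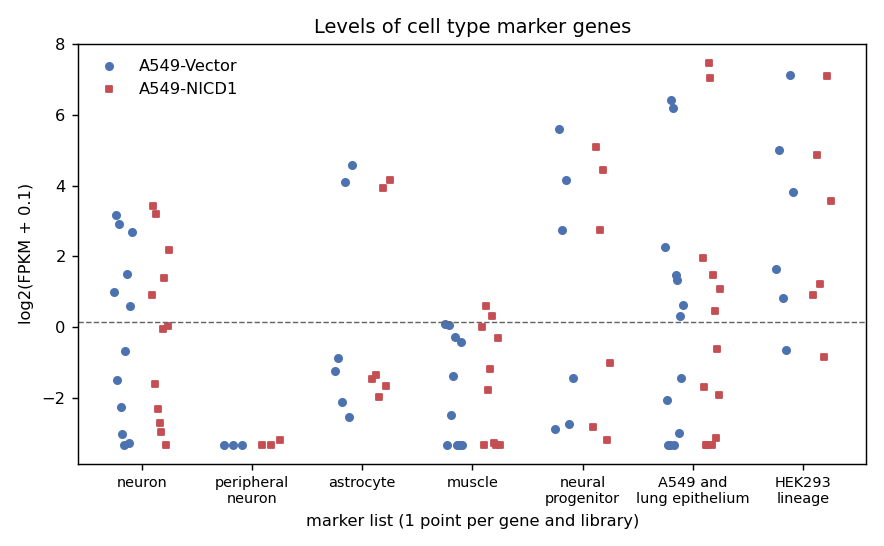
Level of each marker gene on the log2(FPKM + 0.1) scale in A549-Vector (circles) and A549-NICD1 (squares), 1 point per gene and library, with a dashed line at 1 FPKM. Muscle markers lay at or below 1.42 FPKM, while 5 of 12 neuron and 5 of 6 HEK293 markers were at or above 1 FPKM in each library.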

How the data were processed

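mRNA sequencing of polyA RNA was done on A549-NICD1 and A549-Vector cells, with 1 library each, and the genotype in the labels set the groups. The authors deposited 1 value per gene and library. These deposited values were treated as FPKM, a unit read from the values and named in none of the sources used here. The submitters' processing notes name Bowtie2, HTSeq and hg38 without versions. The study's supplement calls the sequencing strand-specific, but the annotation and the use of strand in counting are not given in the sources used here. A total of 27 of 19225 rows had date numbers for gene names and were left out.

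Whole reads were recovered from the values. Genes with equal reads in both libraries gave the ratio of depths, and lengths in GENCODE 29 gave the depths. Each gene was given the fewest reads for which its length was whole, at least its longest coding sequence and at most 2 times its longest transcript. Reads were found for 17046 of 17178 genes above 0 and summed to 89.1% of the depth in A549-NICD1 and 91.3% in A549-Vector. Reads of single genes may be higher by a whole-number factor, which leaves ratios as they are and narrows intervals. Log2 differences used FPKM + 0.1 after a trimmed mean of log ratios (30% of ratios and 5% of levels trimmed at each end), a scale that understates low genes. Counts over all genes used those at 0.1 FPKM or more in a library. Intervals cover counting error only, as PCR copies were not marked by molecular identifiers and reads need not stand for separate molecules.

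On simulated reads of 16416 genes, with 200 changed, both depths were found exactly. The ratio of reads was right for 100% of the genes recovered and the reads themselves for 88.4%. Of 2000 intervals of unchanged genes, 95.1% held 0. These intervals used the simulated reads, depths and scaling instead of the recovered ones, so they do not check the intervals of the filament genes. The analysis used Python 3.11.15, NumPy 2.4.6, pandas 2.3.3 and SciPy 1.17.1, and matplotlib 3.10.9 drew the figures.

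The genes and lists were chosen with earlier results of these data known. Named were all 8 members, the 3 highest genes of each list, list genes at 1 FPKM or more and beyond a log2 difference of 1, defining markers at 0 in both libraries, the 3 genes nearest to NEFL, and NOTCH1 and RFC4. REST, KRT19, TNNT2 and MYL1 were named in addition after their values had been seen, as were the neighbours of NEFL and NEFM and CCDC103. Some list genes that this rule names are not reported here. Alternatives, of which equal sums at the deposited scale were added after seeing the data, covered scaling, pseudocount, recovered reads, the filter on low values and the thresholds.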

Additional observations from a re-analysis of the deposited data

How the results depend on the processing

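With 1 library per group there is no replicate to leave out, and no further test could be made. No paired analysis was possible because each group had 1 library. Over 8 alternatives of scaling, pseudocount and reads, the median log2 difference of the 8 genes ranged from -0.08 to -0.01, and each gene kept its sign. The log2 difference ranged from 0.40 to 0.47 for INA, from 0.27 to 0.32 for NES, from -0.37 to -0.30 for NEFM, from -0.75 to -0.45 for PRPH and from -0.68 to -0.38 for GFAP. For NEFL it reached -0.07 without scaling, but the counting interval given above was taken with scaling and moves with it. The scaling shift of 0.056 is larger than the upper end of that interval, 0.04. Without scaling the interval of NEFL would therefore lie wholly below 0, so whether it holds 0 depends on the scaling. With a threshold of 0.5, 2 of the 8 genes lay beyond it, PRPH and GFAP, against 13.2% of genes at 0.1 FPKM or more in a library. The number of all genes beyond 2-fold, 510, became 777 with each library rescaled to a TPM-like sum and 783 without NOTCH1 and RFC4 in that sum, both of which also enlarge every value against the pseudocount. With the sums made equal at the deposited scale, alternatives chosen after seeing the data, it was 498 and 497, and without scaling 499. It became 52 with a pseudocount of 1, 934 with 0.01, 951 on recovered reads plus 0.5 and 143 at 1 FPKM or more in a library. Of 126 alternative values of the medians of 14 lists, 1 changed sign, that of the small heat shock chaperones, at 0.22 among genes at 1 FPKM or more in a library. The muscle median of 0.41 became 0.12 with a pseudocount of 1, and the neural progenitor median of 0.19 became 0.05 among genes at 1 FPKM or more in a library. Between 4 and 6 members counted as expressed at 3, 1 and 0.5 FPKM. Scaling moved the median of all genes by at most 0.055. Depth limits NEFH and DES, with 68 reads or fewer each.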
